A study of Mus musculus with 4 samples.

Results

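The values of 10 genes of fibroblast growth factor (Fgf) signaling were compared between Lgr5+ and Lgr6+ hair cell (HC) progenitors of the neonatal mouse cochlea. The genes were taken by symbol from a table of 23997 genes, and all 10 were found. They comprise the receptors *Fgfr1*, *Fgfr2* and *Fgfr3*, the ligands *Fgf8*, *Fgf10* and *Fgf20*, the feedback inhibitors *Spry1* and *Spry2*, and the target transcription factors *Etv4* and *Etv5*. Lgr5+ progenitors were EGFP+ cells sorted from Lgr5-EGFP-IRES-creERT2 mice and Lgr6+ progenitors were EGFP+ cells sorted from Lgr6-EGFP-IRES-CreERT2 mice, both from cochleae at postnatal day 3 and both given as strain C57BL/6 in the labels, which name no treatment. The reporter, and so the sort, follows the activity of the *Lgr5* or the *Lgr6* locus. The labels list 2 libraries for each population, while the methods describe RNA of each population that was divided into 3 replicate fractions, which share 1 extraction. The table holds 1 combined FPKM (the number of fragments of a gene scaled to its transcript length and to the depth of the library) for each gene in each population, so the spread between replicates is unknown, no difference could be tested, and each difference below is that between 2 values.

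Fgf ligands bind receptor tyrosine kinases on nearby cells together with heparan sulfate, and the signal passes through the Ras-Raf-Mek-Erk cascade to the nucleus. Erk activity turns on the Ets factors *Etv4* and *Etv5* and also the Sprouty genes, whose products dampen the same cascade. In the cochlea, Fgf signaling is known for the growth of the sensory epithelium and for the formation of pillar cells, the supporting cells (SCs) that line the tunnel of Corti and in which *Fgfr3* is strongly expressed.

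All FPKM values together came to 754163 for Lgr5+ and 627932 for Lgr6+ progenitors. A gene was kept when its FPKM was at least 1 in at least 1 population, which 13436 genes met. *Lgr5* itself had an FPKM of 9.65 in Lgr5+ and 24.99 in Lgr6+ progenitors, and *Lgr6* had 2.06 and 2.90. *Lgr5* was thus lower in the population named for it. The study describes Lgr6+ cells as a subpopulation of the Lgr5+ cells. By q-PCR it reported more *Lgr5* in Lgr5+ cells and more *Lgr6* in Lgr6+ cells than in the matching EGFP- cells, which is another comparison. *Sox2*, the SC marker by which the sorted cells were checked, had 139.6 and 54.8. Markers of other cochlear cell types also differed. The summed FPKM of 8 macrophage genes was 1.12 in Lgr5+ and 204.9 in Lgr6+ progenitors, and 6 of them, *C1qb*, *C1qc*, *Tyrobp*, *Csf1r*, *Ptprc* and *Aif1*, were listed at 0 in Lgr5+ progenitors. The sums were 11.3 and 82.5 for 7 endothelial genes, of which *Kdr* was listed at 0 in Lgr5+ progenitors, 73.8 and 261.8 for 6 Schwann cell and glial genes, of which *Foxd3* was listed at 0 in Lgr6+ progenitors, and 347.1 and 1002 for 11 mesenchyme genes. The sum of 5 erythroid genes was 629.4 and 108.0. What part these cells have in the values below was not tested, and fewer cells of a type cannot be told apart from less RNA per cell.

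**Figure D1:**
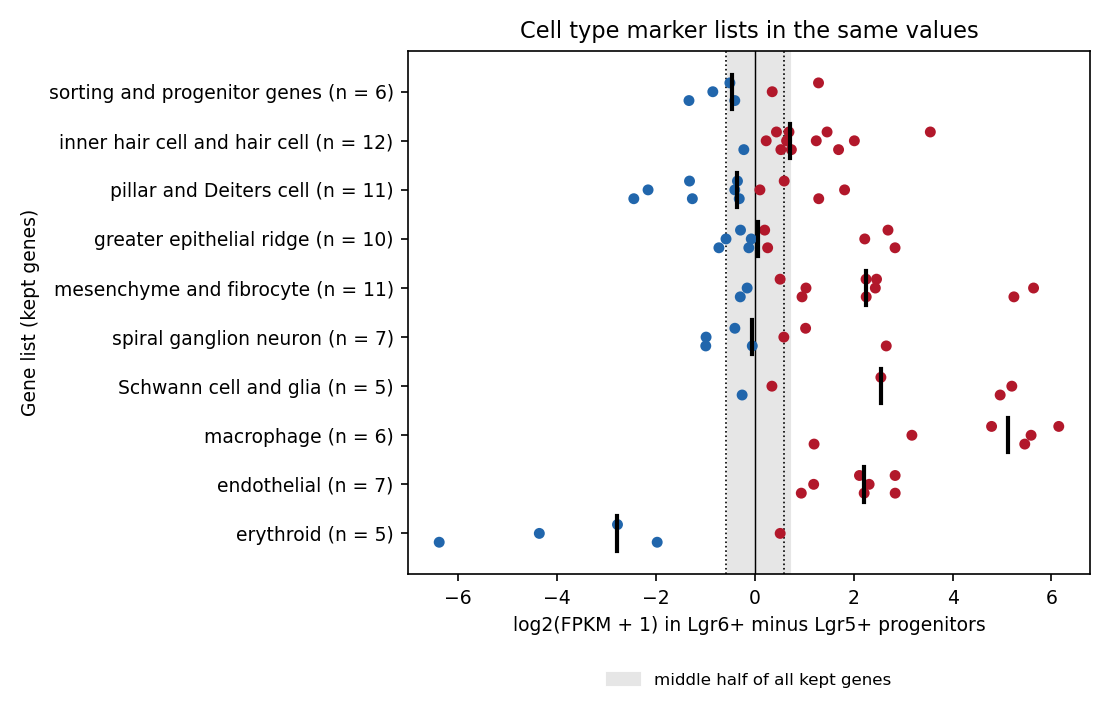
Differences of the kept genes in 10 lists of cell type markers, as log2(FPKM + 1) in Lgr6+ minus Lgr5+ progenitors on the horizontal axis. Each point is a gene (blue below 0, red above 0), black bars are list medians, the grey band holds the middle 50% of all kept genes and dotted lines mark 1.5-fold. All 6 kept macrophage genes and all 7 kept endothelial genes lie to the right of the 1.5-fold line.

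The members were spread over the range of expressed genes. On the scale of log2(FPKM + 1), 4 of the 10 members exceeded a 1.5-fold difference with the higher value in Lgr5+ progenitors, namely *Fgfr2*, *Fgf10*, *Etv4* and *Etv5*. Among all kept genes 23.3% were past the fold in that direction. *Fgf8* and *Fgf20* exceeded it with the higher value in Lgr6+ progenitors, 2 of 10 against 28.5% of all kept genes. The other 4 members, *Fgfr1*, *Fgfr3*, *Spry1* and *Spry2*, were within 1.5-fold. The fold alone therefore passed 51.8% of all kept genes and 6 of the 10 members, and a difference of this size was common in the table. The median log2 difference was -0.38 over the members and 0.03 over all kept genes. The higher value was in Lgr5+ progenitors for 7 members, beside 48.3% of all kept genes.

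All 10 members were kept, although *Fgf20* was kept through its Lgr6+ value alone. The share of kept genes past the fold was higher at low levels than at high ones. The filter itself adds to this. It asks for at least 1 FPKM in 1 population, so kept genes of the lowest mean levels must differ by more than 1.5-fold. A difference of at least 1.5-fold was found for 73.3% of the kept genes with a mean log2 level under 2, for 50.6% of those from 2 to 4 and for 39.2% of those over 4. *Fgfr2*, *Fgf20*, *Spry1*, *Etv4* and *Etv5* lay in the middle class, and 3 of these 5 were past the fold toward Lgr5+ progenitors, against 22.8% of the genes in that class, while *Fgf20* was past it toward Lgr6+ progenitors, against 27.8%. *Fgfr1*, *Fgfr3*, *Fgf8*, *Fgf10* and *Spry2* lay in the high class, where 1 of 5 was past the fold toward Lgr5+ progenitors, against 23.5% of its genes, and *Fgf8* was past it toward Lgr6+ progenitors, against 15.7%. No member lay in the low class, in which 23.9% of the genes were past the fold toward Lgr5+ and 49.4% toward Lgr6+ progenitors.

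**Figure D2:**
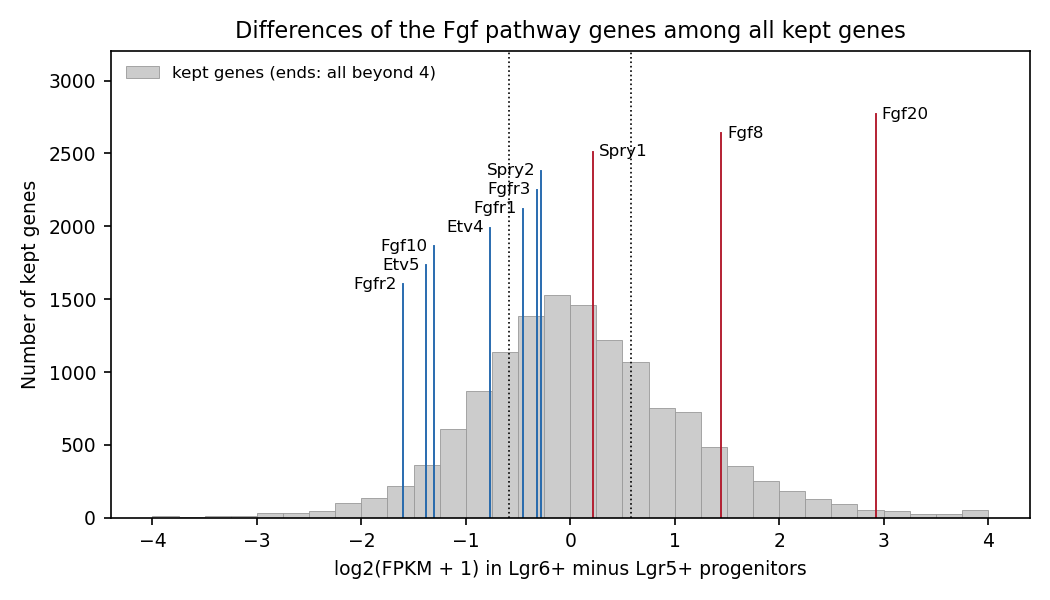
Number of kept genes (vertical axis) by log2(FPKM + 1) in Lgr6+ minus Lgr5+ progenitors (horizontal axis, bins of 0.25, with the end bins holding everything beyond 4 in either direction). Lines mark the 10 members, blue where the Lgr5+ value was higher and red where the Lgr6+ value was higher, and dotted lines mark 1.5-fold. *Fgfr2* at -1.60 and *Fgf20* at 2.92 are the outermost members.

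The sequence before the start site of 6 members is shown because *Fgfr2*, *Fgf10* and *Etv5* had their lower value in Lgr6+ progenitors together, whereas *Fgfr3*, *Spry1* and *Spry2* stayed within 1.5-fold. The sequences are the last 100 bases before the start site that lies nearest to the edge of the gene in the table, from RefSeq on GRCm38.p6, written 5′ to 3′ on the strand of the gene, with each CG dinucleotide in capitals. The promoter table matched 6 of the 10 members, and *Fgfr1*, *Fgf8*, *Fgf20* and *Etv4* were not matched.
*Fgfr2* (chr7:130266809-130266908, minus strand): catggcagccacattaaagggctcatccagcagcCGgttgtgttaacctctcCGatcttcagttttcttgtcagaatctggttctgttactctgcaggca
*Fgf10* (chr13:118714599-118714698, plus strand): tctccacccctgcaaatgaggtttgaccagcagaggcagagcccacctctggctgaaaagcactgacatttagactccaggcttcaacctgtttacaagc
*Etv5* (chr16:22439571-22439670, minus strand): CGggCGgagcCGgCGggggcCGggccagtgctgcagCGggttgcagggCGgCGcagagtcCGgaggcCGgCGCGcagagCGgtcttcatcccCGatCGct
*Fgfr3* (chr5:33721624-33721723, plus strand): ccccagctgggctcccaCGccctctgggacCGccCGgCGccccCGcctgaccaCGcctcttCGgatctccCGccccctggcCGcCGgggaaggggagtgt
*Spry1* (chr3:37639847-37639946, plus strand): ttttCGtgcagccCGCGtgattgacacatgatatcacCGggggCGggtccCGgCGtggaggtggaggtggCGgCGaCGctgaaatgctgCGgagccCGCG
*Spry2* (chr14:105896820-105896919, minus strand): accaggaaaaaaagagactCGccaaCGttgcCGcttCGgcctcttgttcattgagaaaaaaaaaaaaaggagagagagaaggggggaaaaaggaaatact

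The 3 members past the fold toward Lgr5+ progenitors that had a matched promoter did not share a base composition in these stretches. *Fgf10* held 0 CG dinucleotides, *Fgfr2* held 2 and *Etv5* held 15. Over the whole window of 300 bases, from 250 before to 50 after the start site, the GC content was 43.7% for *Fgfr2*, 60.7% for *Fgf10* and 74.0% for *Etv5*, beside a median of 52.7% over 32851 promoters. The windows of *Fgfr3*, *Spry1* and *Spry2* had a GC content of 69.7%, 64.3% and 62.7%. A second window, at another start site, had 60.0% for *Etv5* and 73.0% for *Fgfr3*. The letters CCGGAAGT and CAGGAAGT, which Ets family factors such as Etv4 and Etv5 are known to bind, were searched on both strands. They were in none of the 8 windows of these 6 members, beside 3.89% and 3.33% of all promoters, which says only that these letters were not in these windows.

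*Fgfr3* had the highest FPKM of the receptors in both populations and differed little between them. Its FPKM was 82.5 in Lgr5+ and 66.1 in Lgr6+ progenitors, a log2 difference of -0.32. It lies on chromosome 5 from 33721724 to 33737068, and its level exceeded that of 90.5% of the kept genes in Lgr5+ progenitors and of 89.1% in Lgr6+ progenitors. *Fgfr3* encodes the receptor through which the ligand Fgf8 is known to act on pillar cells.

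*Fgfr1*, on chromosome 8 from 25518759 to 25575718, is known to be needed in the sensory progenitors of the embryonic cochlea. Its FPKM was 41.3 in Lgr5+ and 30.0 in Lgr6+ progenitors, a log2 difference of -0.45. The difference of *Fgfr1*, like that of *Fgfr3*, lay within the middle 50% of all kept genes, which ran from -0.54 to 0.71.

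*Fgfr2* had the lowest level of the 3 receptors and the largest difference. Its FPKM was 8.06 in Lgr5+ and 1.99 in Lgr6+ progenitors, so that the Lgr5+ value was 4.06 times the Lgr6+ value. The log2 difference was -1.60, lower than that of all but 3.74% of the kept genes. *Fgfr2* lies on chromosome 7 from 130162451 to 130266808 and is known for its part in shaping the inner ear, where its epithelial splice form binds Fgf10. The FPKM of a gene combines its splice forms, so the forms of these receptors that differ in ligand binding could not be told apart.

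The remaining receptor gene, *Fgfr4*, is no member and was set beside them to complete the family. Its FPKM was 1.27 in Lgr5+ and 11.5 in Lgr6+ progenitors, a log2 difference of 2.47. Of the summed FPKM of the 4 receptors, *Fgfr3* made up 62.0% in Lgr5+ and 60.3% in Lgr6+ progenitors, and *Fgfr1* made up 31.0% and 27.3%. The share of *Fgfr2* was 6.06% and 1.81%, and that of *Fgfr4* was 0.951% and 10.5%. The receptor sum itself was 133.1 and 109.6, so the receptors that differed most were those with the smaller shares.

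**Figure D3:**
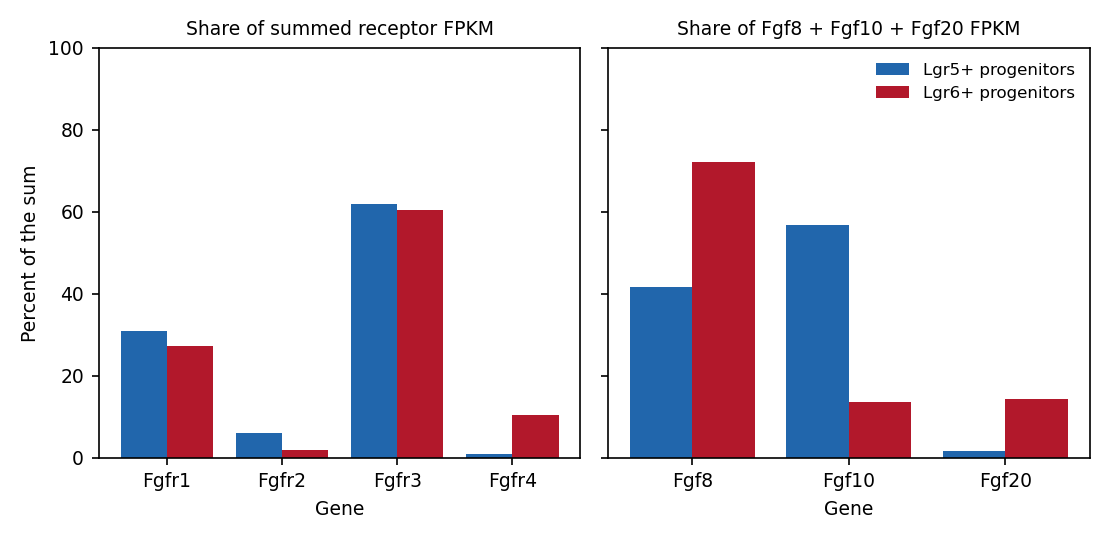
Share of each gene (vertical axis, percent) in the summed FPKM of the 4 Fgf receptors (left) and of *Fgf8*, *Fgf10* and *Fgf20* (right), with blue bars for Lgr5+ and red bars for Lgr6+ progenitors, each bar being 1 combined value without replicates. *Fgfr3* holds 62.0% and 60.3% of the receptor sum, whereas *Fgf10* holds 56.8% and 13.7% of the ligand sum.

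All 3 ligands were past the fold, 1 toward Lgr5+ and 2 toward Lgr6+ progenitors, beside 23.3% and 28.5% of all kept genes. *Fgf8* is made by inner HCs and is known to induce the neighboring pillar cells. Its FPKM was 25.1 in Lgr5+ and 69.9 in Lgr6+ progenitors, 2.79 times higher in the latter, with a log2 difference of 1.44. *Fgf8*, on chromosome 19 from 45736798 to 45742884, was the fourth of the 10 members in Lgr5+ progenitors and first in Lgr6+ progenitors.

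Most HC markers also had the higher value in Lgr6+ progenitors. Of 12 HC markers, all kept, 8 were past the fold toward Lgr6+ progenitors and 0 toward Lgr5+ progenitors, beside 28.5% and 23.3% of all kept genes. None was listed at 0 in either population, and the summed FPKM was 1545 and 2098. *Otof*, which encodes the synaptic protein otoferlin, had 41.6 and 171.0. *Myo7a*, the HC marker of the study, had 19.3 and 47.0. *Pvalb*, which encodes a calcium buffer of HCs, went the other way with 476.9 and 408.4, within 1.5-fold. Per 100 FPKM of *Myo7a*, the FPKM of *Fgf8* was 130.2 in Lgr5+ and 148.8 in Lgr6+ progenitors. The cells were sorted for EGFP, and the study reported no Myo7a protein staining in the sorted cells and Sox2 staining in nearly all. By q-PCR it also reported less of the HC marker Brn3.1 than in the EGFP- cells. The HC marker values above are RNA, and the part of HCs in the *Fgf8* value was not tested.

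*Fgf10*, on chromosome 13 from 118714699 to 118792573, is expressed in the greater epithelial ridge, the medial part of the neonatal epithelium, and is known to be needed for the outgrowth of the cochlear duct. Its FPKM was 34.2 in Lgr5+ and 13.2 in Lgr6+ progenitors, a log2 difference of -1.31. It was the third of the 10 members in Lgr5+ progenitors and the seventh in Lgr6+ progenitors. Among 10 markers of the ridge, *Tectb* was past the fold toward Lgr5+ progenitors and *Otoa*, *Epyc* and *Calb1* were past it toward Lgr6+ progenitors. Among all kept genes 23.3% and 28.5% were past the fold in these directions. None of the 10 markers was listed at 0, and their summed FPKM was 2095 and 1791. The part of ridge cells in the *Fgf10* value was not tested.

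*Fgf20*, on chromosome 8 from 40279166 to 40286953, encodes a ligand needed for the outer part of the sensory epithelium. Its FPKM was 0.956 in Lgr5+ and 13.8 in Lgr6+ progenitors, a log2 difference of 2.92 that was above that of 98.7% of the kept genes. It was the lowest member in Lgr5+ progenitors. The low values of the table fall on steps, 1 step being 0.128 FPKM times kilobases in Lgr5+ and 0.0401 in Lgr6+ progenitors. With the longest annotated transcript of 1476 bases, the *Fgf20* value stood for about 9 such steps in Lgr5+ and 440 in Lgr6+ progenitors. If a step is 1 fragment, the Lgr5+ value rests on few fragments and the depth behind the Lgr6+ values was 3.20 times that of the Lgr5+ values. Whether a step is 1 fragment is not known. Read totals of the libraries were not used here. The other members stood for 189 to 2584 steps in Lgr5+ and 209 to 6623 in Lgr6+ progenitors.

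Summed over these 3 ligands the FPKM was 60.3 in Lgr5+ and 97.0 in Lgr6+ progenitors. *Fgf10* made up 56.8% of the sum in Lgr5+ and 13.7% in Lgr6+ progenitors. *Fgf8* made up 41.6% and 72.1%, and *Fgf20* made up 1.59% and 14.3%. The leading ligand of the 3 was therefore *Fgf10* in Lgr5+ progenitors and *Fgf8* in Lgr6+ progenitors.

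**Figure D4:**
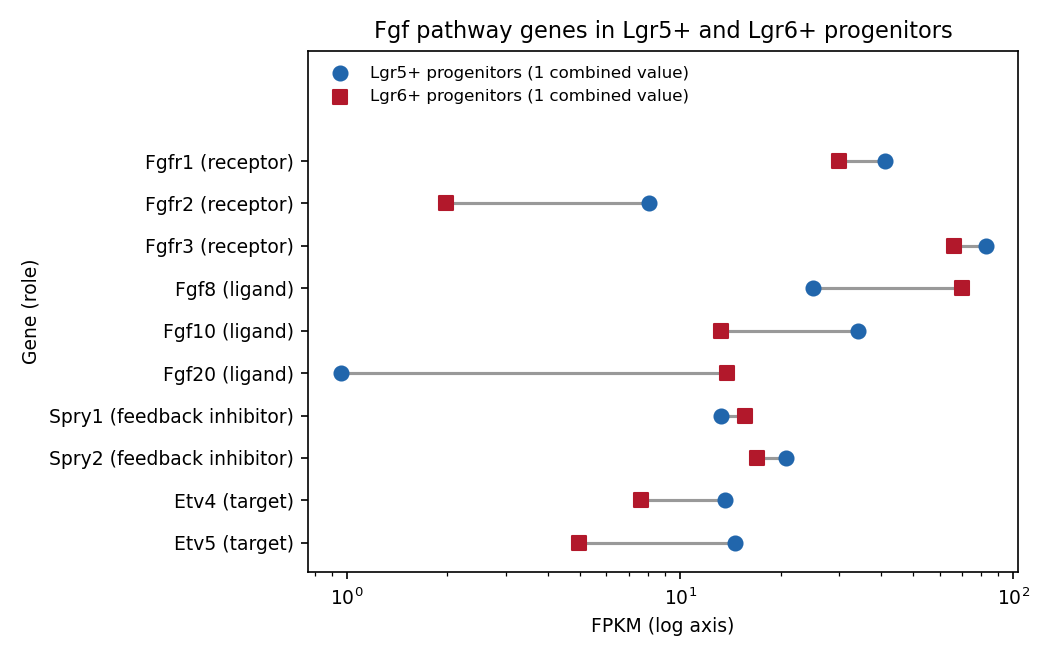
FPKM (horizontal log axis) of the 10 members, by gene and role on the vertical axis, in Lgr5+ progenitors (blue circles) and Lgr6+ progenitors (red squares), 1 combined value each without replicates, with a line joining both values of a gene. The widest gap is that of *Fgf20*, from 0.956 to 13.8, and the narrowest is that of *Spry1*, from 13.3 to 15.6.

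Of the 22 Fgf genes in the table, 8 had an FPKM of at least 1 in Lgr5+ and 10 in Lgr6+ progenitors. Among the 19 that are no members, 9 were kept, of which 3 were past the fold toward Lgr5+ progenitors and 5 toward Lgr6+ progenitors. The shares of all kept genes were 23.3% and 28.5%. *Fgf3*, a ligand of early ear formation, had 12.1 in Lgr5+ and 30.0 in Lgr6+ progenitors. *Fgf9*, which signals from epithelium to mesenchyme in many organs, had 6.58 and 1.35. The endocrine ligands differed in opposite directions, since *Fgf15* had 3.44 and 0.611 and *Fgf21* had 4.18 and 21.1. Their co-receptor gene *Klb* was listed at 0 in both populations, and *Kl*, which serves the endocrine ligand Fgf23, had 0.0381 in Lgr5+ progenitors and was listed at 0 in Lgr6+ progenitors.

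Several of the remaining Fgf genes were close to the lowest FPKM allowed. *Fgf1* had 0.673 and 1.93, and *Fgf17* was at 0 in the list of Lgr5+ values and had 2.18 in Lgr6+ progenitors. *Fgf11*, *Fgf13* and *Fgf14* encode factors that stay inside the cell and are not known as ligands of the usual kind. *Fgf11* had 15.6 and 22.1, *Fgf13* had 1.66 and 0.5003, and *Fgf14* was at 0 in the list of Lgr5+ values and had 1.06 in Lgr6+ progenitors. Of these, *Fgf11* was the only 1 within 1.5-fold.

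Among 9 receptor, co-receptor and binding genes that are no members, *Fgfr4* included, 5 were kept. Of these, 1 was past the fold toward Lgr5+ progenitors and 3 toward Lgr6+ progenitors, beside 23.3% and 28.5% of all kept genes. *Fgfrl1*, which encodes a receptor without a kinase domain, had an FPKM of 154.5 in Lgr5+ and 98.6 in Lgr6+ progenitors, more than any of the 4 receptors with a kinase domain. *Fgfbp3*, which encodes a secreted carrier of Fgf ligands, had 5.27 and 8.84.

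The Sprouty members did not pass the fold in either direction. *Spry1* (chromosome 3, positions 37639950 to 37644599) reached an FPKM of 13.3 in Lgr5+ and 15.6 in Lgr6+ progenitors, a log2 difference of 0.22. *Spry2* (chromosome 14, positions 105891947 to 105896819), whose loss is known to give supernumerary pillar cells, had 20.8 and 17.0, a log2 difference of -0.28. The summed FPKM of the 4 Sprouty genes was 34.0 in Lgr5+ and 34.1 in Lgr6+ progenitors. *Spry4* was at 0 in the list of Lgr5+ values and had 1.58 in Lgr6+ progenitors, and *Spry3* was listed at 0 in both.

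Several other inhibitors of the cascade were past the fold. Of 10 such genes 8 were kept, 3 past the fold toward Lgr5+ progenitors and 1, *Spry4*, toward Lgr6+ progenitors, with a median log2 difference of -0.31. Among all kept genes 23.3% and 28.5% were past the fold in these directions, 51.8% together, so passing it was as common elsewhere. *Il17rd*, which encodes a membrane inhibitor of Fgf signaling also called Sef, had an FPKM of 4.997 in Lgr5+ and 0.9002 in Lgr6+ progenitors. *Dusp4*, which encodes a phosphatase of Erk, had 3.62 and 0.0802. *Dusp6*, the Erk phosphatase best known as an Fgf target and named here after its values were seen, had 34.7 and 15.2, a log2 difference of -1.14. The other 4 kept inhibitors were within 1.5-fold on the log2(FPKM + 1) scale.

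Both Ets members were higher in Lgr5+ progenitors. *Etv5* (chromosome 16, positions 22381313 to 22439570) reached an FPKM of 14.6 in Lgr5+ and 4.97 in Lgr6+ progenitors, so that the Lgr5+ value was 2.93 times the Lgr6+ value, with a log2 difference of -1.38. *Etv4* (chromosome 11, positions 101769742 to 101785310) had 13.6 and 7.61, a log2 difference of -0.76. The third gene of this Ets subfamily, *Etv1*, had 5.29 and 4.42 and was within 1.5-fold. The summed FPKM of the 3 genes was 33.4 in Lgr5+ and 17.0 in Lgr6+ progenitors, and the share of *Etv5* in it was 43.5% and 29.3%.

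The difference of *Etv4* was the least secure of the members past the fold. With the populations scaled to the same sum of FPKM, its log2 difference was -0.53 and no longer reached 1.5-fold, and it did not reach 2-fold under any scaling. At 2-fold, 3 of the 10 members were past the threshold toward Lgr5+ progenitors, beside 11.7% of all kept genes, and 2 toward Lgr6+ progenitors, beside 18.2%, so that 5 of 10 differed by 2-fold, beside 29.9%.

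Among 6 other genes known to respond to Erk, 5 were kept, with a median log2 difference of -0.66, beside 0.03 over all kept genes. *Ccnd1*, which encodes cyclin D1, had an FPKM of 66.8 in Lgr5+ and 34.4 in Lgr6+ progenitors. *Egr1*, an immediate early gene that tissue dissociation also induces, had 441.9 and 274.6. These genes and *Fos* were past the fold toward Lgr5+ progenitors, while *Myc*, with 0.0740 and 1.32, was past it toward Lgr6+ progenitors. Among all kept genes 23.3% and 28.5% were past the fold in these directions. Genes that respond to Erk also respond to other signals, and what moved those named here was not tested.

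The genes that carry the signal from receptor to Erk differed less. Of 24 adaptor, Ras, Raf, Mek and Erk genes 23 were kept, and 15 were within 1.5-fold, whereas 51.8% of all kept genes were past it. Toward Lgr5+ progenitors 3 were past the fold, all of them Ras genes, *Hras* with an FPKM of 54.8 in Lgr5+ and 31.4 in Lgr6+ progenitors, *Rras* with 83.3 and 42.0, and *Nras*, which the naming rule did not select, with 25.5 and 16.3. Toward Lgr6+ progenitors 5 were past the fold, and the largest differences of these were those of *Ksr1*, a scaffold of the cascade, with 0.205 and 1.06, and of *Sos1*, which activates Ras, with 4.16 and 7.52.

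**Figure D5:**
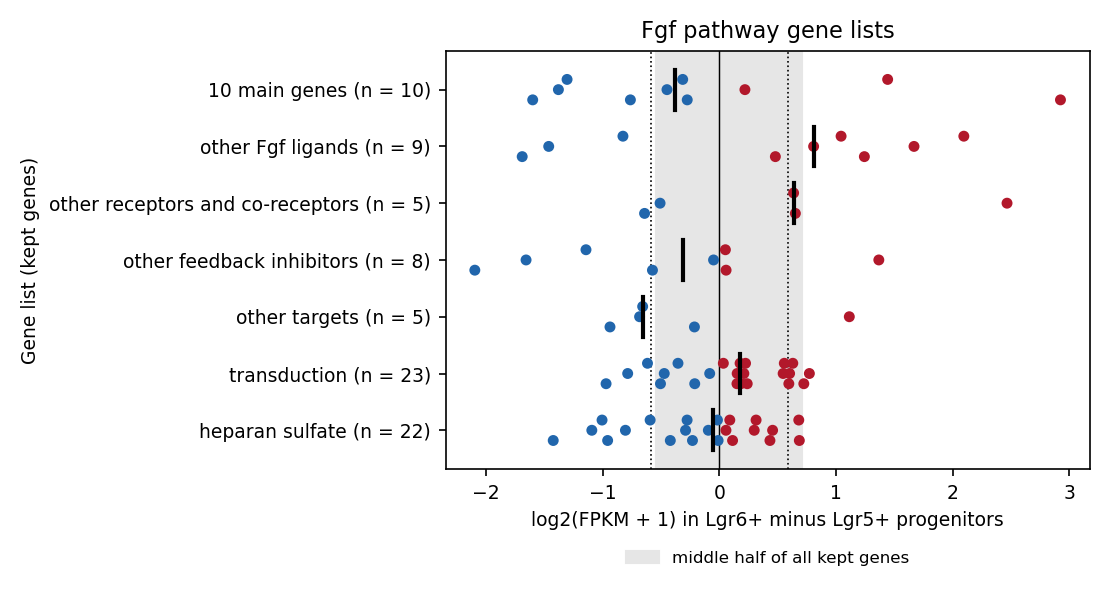
Differences of the kept genes in the 10 main genes and 6 further lists of Fgf signaling, as log2(FPKM + 1) in Lgr6+ minus Lgr5+ progenitors on the horizontal axis, with list and number of kept genes on the vertical axis. Each point is a gene (blue below 0, red above 0), black bars are list medians, the grey band holds the middle 50% of all kept genes and dotted lines mark 1.5-fold. The median of the other Fgf ligands is 0.81 and that of the other Erk targets is -0.66.

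Over the 6 lists, 72 of 90 genes were kept, of which 19 were past the fold toward Lgr5+ progenitors and 17 toward Lgr6+ progenitors. These are 26.4% and 23.6% of the kept genes, beside 23.3% and 28.5% of all kept genes, and the median log2 difference was 0.04.

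The levels were also set beside a marker gene of each population, a comparison chosen after the data were seen. Dividing by a marker moves every gene by the same factor, so the counts are read beside those of all kept genes. *Sox2* was 2.55 times higher in Lgr5+ progenitors, and per 100 FPKM of *Sox2* 7 of the 10 members and 90.3% of all kept genes had the higher value in Lgr6+ progenitors. *Fgfr2*, with 5.78 and 3.63, *Etv5*, with 10.4 and 9.07, and *Fgf10*, with 24.5 and 24.2, were the members that did not. Per 100 FPKM of *Myo7a*, which was higher in Lgr6+ progenitors, 8 members and 82.0% of all kept genes had the higher value in Lgr5+ progenitors. *Fgf8*, with 130.2 and 148.8, and *Fgf20*, with 4.96 and 29.5, were the members that did not. The directions of these 5 genes were the same by FPKM and beside these 2 markers, with *Fgf10* nearly equal beside *Sox2*. A direction turns wherever the marker differs by more in the same direction, so this depends on the marker. *Gfi1*, *Otof*, *Tmc1* and *Loxhd1* rose more toward Lgr6+ progenitors than *Fgf8* did, so beside them its direction turns. Beside *Tmc1* that of *Fgf20* turns too. The other HC markers rose less than *Fgf8* or fell. In the list of pillar and Deiters cell genes, *Hes5* and *Hey2* were 5.51 and 5.47 times higher in Lgr5+ progenitors. Beside them the directions of *Fgfr2*, *Fgf10* and *Etv5* turn, and beside *Lmcd1*, at 2.76 times, that of *Fgf10* turns. *Npy* and *Bace2* of the same list rose more toward Lgr6+ progenitors than *Fgf8* did, so beside them the direction of *Fgf8* turns.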

How the data were processed

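EGFP+ cells sorted from cochleae were profiled by RNA-Seq. The authors prepared libraries with a SMART-Seq low-input kit, ran Trimmomatic and then TopHat on the reads, took genes from RefGene and analysed expression, in FPKM, with Cufflinks (versions are not given in the sources used here). The FPKM that the authors deposited is 1 combined value per population, and 3 further columns, which hold the fold change, *p*-value and *q*-value of their own comparison, were not used. Where the authors combined the libraries, the spread between them is lost, so no test was run and no *p*-value is given. The methods name mm9, whereas the labels name mm10. Of 19493 gene symbols, 99.1% overlapped the gene in GRCm38 and 12.7% in NCBIM37 (mm9), so positions are read as GRCm38, with 1 added to each start.

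A gene was kept when its FPKM was at least 1 in at least 1 population. The log2 difference is log2(FPKM + 1) in Lgr6+ minus Lgr5+ progenitors, and a kept gene counted as past the fold at a difference of at least 1.5-fold on that scale. The study also used a 1.5-fold threshold, together with a *p*-value and a background level that were not applied here. Alternatives changed the pseudocount, the filter, the scaling and the fold. The members and lists were chosen with earlier results of these data known. Beyond the 10 main genes, the text names, in each pathway list, the 2 genes with the largest difference in each direction among those past the fold, every *Fgf* gene with an FPKM of at least 1 and the checks of the sort. Genes listed at 0, *Kl*, *Etv1*, *Fos* and the named pillar and Deiters cell genes lie outside this rule. They were chosen once their values had been seen. The design also named, for each main gene, the gene with the nearest pair of levels, and 1 of these is not reported here. The table holds no depth per library, and the read totals of the study were not used here. For 6908 genes with 1 annotated transcript, low FPKM times transcript length less 200 bases fell on steps. The calculations, in Python 3.11.15 with numpy 2.4.6 and pandas 2.3.3, were tested on simulated data.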

Additional observations from a re-analysis of the deposited data

How the results depend on the processing

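Across 8 alternatives the 10 members kept the sign of their log2 difference in each setting in which they were kept. Only the changes of scaling could have turned a sign, since the filter, the fold and the pseudocount cannot. With the same sum of FPKM, *Fgfr3* came to -0.05 and *Spry2* to -0.03. *Etv4* was the only 1 that crossed the threshold, at -0.53 with the same sum of FPKM and at -0.76 with the 2-fold threshold. The log2 difference ran from -1.97 to -1.42 for *Fgfr2*, from -1.36 to -1.06 for *Fgf10*, from -1.53 to -1.16 for *Etv5*, from 1.44 to 1.70 for *Fgf8* and from 2.69 to 3.72 for *Fgf20*. Scaling to the same sum of FPKM moved the median of all kept genes to 0.27 and that of the members to -0.12. It also raised the share of calls toward Lgr6+ progenitors over all kept genes from 54.96% to 69.3%, and turned the balance of the 6 further lists from 19 genes toward Lgr5+ and 17 toward Lgr6+ progenitors to 13 and 22. When both populations had to reach 1 FPKM, *Fgf20* left the comparison, so 1 member was past the fold toward Lgr6+ progenitors. Of the genes in the 6 further lists, 8 were past a 2-fold threshold toward Lgr5+ progenitors and 7 toward Lgr6+ progenitors, since a higher threshold passes fewer genes. The number toward Lgr6+ progenitors became 10 when 1 population had to reach 5 FPKM, 11 when both had to reach 1 FPKM and 9 after quantile normalization, and for the last the cause was not tested. No paired analysis was possible because the table holds 1 combined value per population, and for the same reason no replicate could be left out. The table holds no counts, so values near 1 such as that of *Fgf20* in Lgr5+ progenitors are the least certain.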

Other observations

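Heparan sulfate, the co-receptor of secreted Fgf ligands, is carried by glypicans and syndecans at the cell surface. All 22 genes of its synthesis, sulfation and core proteins were kept, 6 of them past the 1.5-fold threshold toward Lgr5+ and 2 toward Lgr6+ progenitors. This stands beside 23.3% and 28.5% of all kept genes, and the median log2 difference of the 22 genes was -0.06. *Gpc1*, which encodes the core protein glypican 1, had an FPKM of 120.6 in Lgr5+ and 44.3 in Lgr6+ progenitors, a log2 difference of -1.43. *Gpc6* had 14.0 and 6.00, and *Sdc4*, the syndecan with the highest level and named after its values were seen, had 44.8 and 22.6. Toward Lgr6+ progenitors, *Sdc3* had 5.09 and 8.78 and *Hs2st1*, which encodes a sulfotransferase, had 5.20 and 8.93. The chain-building enzymes *Ext1*, with 22.2 and 22.0, and *Ext2*, with 25.8 and 24.1, also named after their values were seen, were within 1.5-fold.

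The pair of levels that a member had was not rare in the table. Within 0.25 of a member on the log2(FPKM + 1) scale of both populations lay 322 other kept genes for *Spry2*, 317 for *Spry1*, 192 for *Fgfr1* and 48 for *Fgfr2*. The fewest, 10, lay near *Fgf20*, and 27 lay near *Fgf8*. The nearest gene was *Gtpbp1* for *Fgfr1*, *5730409E04Rik* for *Fgfr2*, *Fabp5* for *Fgfr3*, *Emc10* for *Fgf8*, *Slc35b2* for *Fgf10*, *Adprhl1* for *Fgf20*, *Casp6* for *Spry2*, *Vps16* for *Etv4* and *Smad7* for *Etv5*. With 2 values for each gene this nearness is a description only.

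Of the remaining marker lists, 11 pillar and Deiters cell genes had a summed FPKM of 5328 in Lgr5+ and 5469 in Lgr6+ progenitors, with 4 past the fold toward Lgr5+ and 3 toward Lgr6+ progenitors. Most of these sums came from *S100a1*, with 2959 and 3177, and *Cryab*, with 1290 and 1011. *Hes5*, with 505.2 and 91.7, and *Npy*, with 257.7 and 909.5, differed in opposite directions. For 8 spiral ganglion neuron genes the sums were 328.8 and 249.5, and 2 were past the fold toward Lgr5+ and 3 toward Lgr6+ progenitors. The counts of both lists stand beside 23.3% and 28.5% of all kept genes.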
